A study of Mus musculus with 5 samples.

Results

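The neural POU factors described here were 7 mouse genes of the POU family, the class III genes Pou3f1, Pou3f2, Pou3f3 and Pou3f4 and the class IV genes Pou4f1, Pou4f2 and Pou4f3. They were chosen by name, and every array probe whose transcript accession matched one of these symbols was taken. Each of the 7 genes had 1 matched probe with 1 spot per array, among 19897 genes with a matched probe. The study followed mouse embryonic stem (ES) cells as they were differentiated into spinal motor neurons, with 1 Agilent one-colour microarray at each of 5 time points. Series and sample labels describe wild-type, male cells from which total RNA was taken, amplified and labelled with Cy3. The ES array held undifferentiated ES cells, and Day2 held embryoid bodies, floating aggregates of differentiating cells, after 8 h of retinoic acid (RA). Day3 and Day4 held embryoid bodies after 1 and 2 days of RA. Day7 was labelled as motor neurons after 5 days of RA, with embryoid bodies still given as its tissue. The treatment text of the labels has RA and Shh applied between day 2 and day 5, while the methods of the study name SAG, an agonist of the Shh pathway. Among the ES lines in those methods is Hb9::GFP, a motor neuron reporter, and the labels name no line. Replicates were lacking, so no spread could be measured and no test was run, and having 1 array at each time limits the precision of every value.

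POU factors bind DNA through a POU-specific domain joined to a POU homeodomain, and many recognise the octamer motif. Class III factors act in neural progenitors and young neurons, often beside Sox proteins, and Pou3f1 (also Oct6 or SCIP) is also known in primed pluripotent cells, in subsets of motor neurons and in Schwann cells. Class IV factors (the Brn3 proteins) are known for the survival and identity of sensory neurons, retinal ganglion cells and inner ear hair cells.

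Values are quantile-normalized log2 signals unless the raw spot signal after background subtraction is named. A change of 2-fold, 1 on the log2 scale, was used as a fixed rule of size, and "rose" and "fell" are used for changes past it. A probe that the scanner software did not mark as well above background has no measured level on that array. Where such a probe read less than the dimmest probe well above background on that array, that dimmest value (the floor) was used in its place. A higher reading was kept as it was. In both cases the change is called a bound and written as at least that size. A bound holds only for this floor and normalization, and some were smaller with another floor or background correction. The floors were 4.18, 2.60, 5.22, 4.05 and 4.66 in the order of the arrays. Samples were bulk cultures, in which fewer cells of a type and less RNA per cell cannot be told apart.

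The Day2 array stood apart from the other 4. The share of mouse probes well above background there was 86.7%, where ES, Day3, Day4 and Day7 had 59.2%, 57.5%, 65.7% and 62.4%. Among 1155 olfactory receptor probes, whose genes are silent in most tissues, the share was 70.0% on Day2 and 8.74% to 14.1% elsewhere. Of 5362 genes not well above background in ES cells, 70.5% were well above background on Day2 and 21.0% had risen at least 2-fold. For this reason changes of the 7 genes to and from Day2 are given beside the change from ES to Day3, which passes over that array, where this had a value. Day7 alone came from a second slide, and effects of slide and of time are mixed in its values.

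Markers set the labels in context. All 7 ES cell markers were well above background on every array, and from ES to Day7 4 of the 7 fell (Pou5f1, Klf4, Esrrb and Zfp42), with a median log2 change of -2.82. All 3 markers of primed epiblast (Fgf5, Otx2 and Dnmt3b) fell over the same interval, with a median of -4.99. Of all genes, 24.4% fell from ES to Day7. The 3 markers of motor neuron progenitors, Olig2, Nkx6-1 and Nkx6-2, all rose from Day3 to Day4, where 3.62% of all genes rose. From Day4 to Day7 all 6 measured motor neuron markers and all 7 pan-neuronal markers rose, with medians of 5.51 and 5.63. Of all genes, 18.1% rose at this step. Mnx1, the seventh motor neuron marker, had no matched probe. The Day7 culture thus carried motor neuron and neuronal RNA, as its label says.

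**Figure D1:**
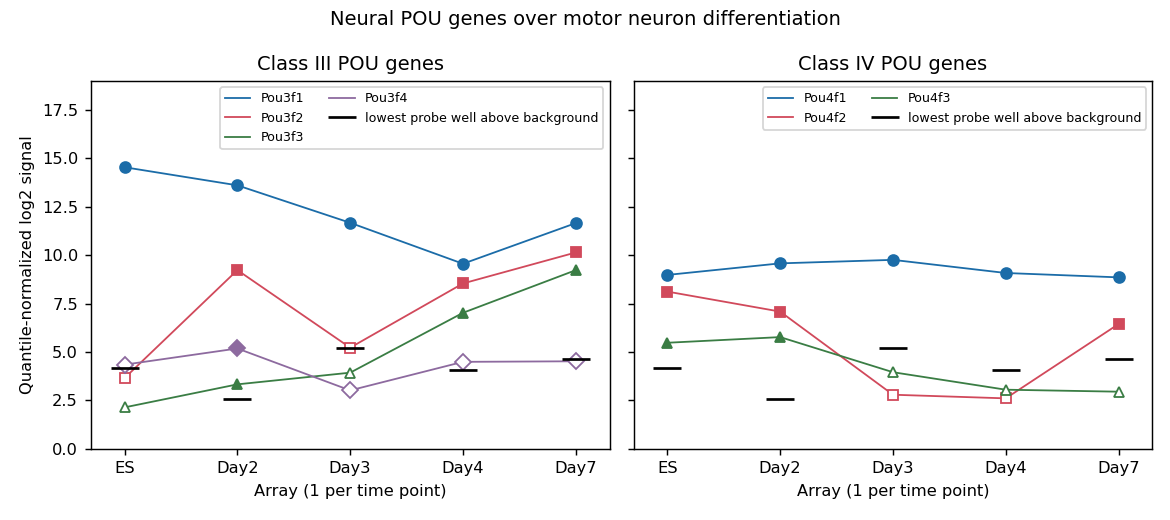
Quantile-normalized log2 signal of the 7 neural POU genes on the ES, Day2, Day3, Day4 and Day7 arrays (1 array each), class III genes on the left and class IV genes on the right. Filled symbols are probes well above background, open symbols are probes that are not, and black bars mark the floor of each array; Pou3f1 falls from 14.55 on the ES array to 9.56 on Day4, while Pou3f2 and Pou3f3 reach 10.14 and 9.23 on Day7.

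Among the class III genes, Pou3f1 was well above background on all 5 arrays. Its log2 signal was 14.55 in ES cells and then 13.61, 11.68, 9.56 and 11.66 at the 4 later times, from raw spot signals of 36200, 16500, 2610, 436 and 4410. The gene was thus highest in ES cells, lowest on Day4 and partly restored on Day7, and no spot was saturated. The error that the scanner software gives for each of these spots was about 10% of its signal, a technical error of the spot alone. From ES to Day2 the change was -0.94 (1.91-fold lower), just short of the threshold, and it was -1.36 when arrays were instead aligned at their 75th percentiles. Pou3f1 then fell 3.82-fold from Day2 to Day3 and 4.34-fold from Day3 to Day4. From ES to Day3, passing over Day2, it fell 7.31-fold, and from ES to Day4 31.7-fold. From Day4 to Day7 it rose 4.29-fold, to a level 7.39-fold below that of ES cells and within 1.01-fold of Day3. Across all alternatives of processing its log2 change lay between -2.67 and -1.90 from Day2 to Day3, between -2.58 and -1.99 from Day3 to Day4 and between 1.90 and 3.34 from Day4 to Day7, so that these directions did not depend on the scaling.

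All 3 primed epiblast markers fell from ES to Day3, with a median of -4.61, and from Day2 to Day3. Of all genes, 10.2% fell from ES to Day3 and 7.76% from Day2 to Day3. From Day3 to Day4, when Pou3f1 fell again, Dnmt3b fell while Fgf5 and Otx2 changed by -0.33 and -0.71. The summed normalized signal of the 3 genes was 138000 in ES cells and then 77000, 20400, 10000 and 4360, most of it from Dnmt3b (129000 in ES cells), and all 3 were well above background on each array. Fgf5, a growth factor of the primed epiblast, changed by -2.55 between ES and Day2 (log2), and Otx2, a homeodomain factor of the same state, by -3.79. From Day4 to Day7, when Pou3f1 rose, Otx2 rose by 2.10 and Dnmt3b, a DNA methyltransferase, fell by 1.28, and the change of Fgf5 was 0.66. The part of these cells in the Pou3f1 signal was not tested.

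For the rise of Pou3f1 on Day7, 2 other groups of markers were read. Of 5 Schwann cell and oligodendrocyte markers none rose from Day4 to Day7 and Egr2 fell, and their summed normalized signal was 3860 on Day4 and 5850 on Day7, with Mbp the brightest on both and all 5 well above background on both. Of 8 genes of motor pools and columns, all with a value, Etv4, Runx1, Aldh1a2 and Hoxa5 rose and Hoxc6 and Hoxc8 fell, where 18.1% of all genes rose and 18.1% fell. Etv4, which marks some limb motor pools, rose by 1.19 and Aldh1a2, the RA-synthesising enzyme of limb-level motor neurons, by 7.09. Foxp1, a factor of limb-innervating motor neurons, changed by 0.17. The summed normalized signal of the motor neuron markers was 2180 on Day4 and 75900 on Day7. The part of any of these cells in the rise of Pou3f1 was not tested.

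Pou3f2 (Brn2), a class III factor of neural progenitors and neurons, had raw spot signals of 12.9, 823, 21.9, 215 and 1630 in the order of the arrays. It was well above background on Day2, Day4 and Day7, at log2 values of 9.23, 8.54 and 10.14, and on neither ES nor Day3. Its course therefore had an early peak on Day2, no measured level on Day3 and a second rise that was highest on Day7. Pou3f2 rose at least 33.2-fold from ES to Day2 and fell at least 16.1-fold from Day2 to Day3, a bound of -4.01 as log2 that was -2.56 with normexp and -3.22 with the floor at the olfactory receptor probes. It rose again at least 9.97-fold from Day3 to Day4 and 3.03-fold from Day4 to Day7, and the bound from ES to Day7 was 62.5-fold. From ES to Day3 there was no value, because neither array gave a measured level.

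The Day2 peak of Pou3f2 rested on the array with raised signal in dim probes. Of the 5362 genes without a measured level in ES cells, 64 others (1.19%) had a lower bound on Day2 as large as that of Pou3f2. Among 1019 olfactory receptor probes not well above background in ES cells, 4 (0.393%) reached its Day2 value. With the floor raised on each array to the 95th percentile of the olfactory receptor probes (added once the data had been seen), the bound from ES to Day2 was 2.81 on the log2 scale against 5.05, and with normexp background correction it was 2.90. The part of the raised Day2 signal in this peak was not tested further. The later rise does not involve Day2. With that array left out of the normalization, the bound from Day3 to Day4 was 3.56, against 3.32 with all arrays, and the change from Day4 to Day7 was 1.66. The bound from Day3 to Day4 was 1.98 with normexp and 2.53 with the floor at the olfactory receptor probes, and that from ES to Day7 was 3.79 and 3.72, against 5.97.

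Pou3f3 (Brn1), the close relative of Pou3f2, had raw spot signals of 6.91, 44.7, 7.33, 72.5 and 869 in the order of the arrays. It was well above background on Day2, Day4 and Day7, the same arrays as Pou3f2, at log2 values of 3.33, 7.03 and 9.23. Of 19897 genes, 319 (1.60%) were well above background on exactly these 3 arrays. On Day2, however, Pou3f3 lay under the median of the olfactory receptor probes (3.40), whereas Pou3f2 lay above their 95th percentile (7.59). The Day2 value of Pou3f3 also lay below the floor of the ES array and of Day3, so no fold was given for either step. After the 75th percentile shift the bound from ES to Day2 was 1.04. From Day2 to Day3 the sign depended on the processing, with -1.03 without normalization and 0.60 with the positive-and-significant flag. ES to Day3 gave no value. From Day3 to Day4 Pou3f3 rose at least 3.50-fold and from Day4 to Day7 4.61-fold. On the log2 scale the bound from Day3 to Day4 was 1.81, but 1.11 with normexp and 1.01, at the threshold, with the floor at the olfactory receptor probes. The bound from ES to Day4 was 7.20-fold and from ES to Day7 33.1-fold, the latter 5.05 as log2 and 2.99 and 2.80 under the same alternatives. Thus Pou3f2 and Pou3f3 both rose at each step after Day3, whereas Pou3f1 fell from Day3 to Day4 and rose only afterwards.

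Pou3f4 (Brn4), known for its roles in the inner ear and the developing striatum, was well above background on Day2 only. Its raw spot signals were 20.8, 107, 5.18, 11.5 and 23.6, and its Day2 log2 value was 5.18. This pattern was shared by 2188 genes (11.0%), and of the genes well above background on Day2 but not in ES cells, 83.8% were not well above background on Day3. The bound from ES to Day2 was 1.79-fold, under the threshold, and there was no fold from Day2 to Day3 and no value for ES to Day3 or the later steps. After the 75th percentile shift the bound from ES to Day2 was 2.14 on the log2 scale, and with normexp it was 0.21. From Day2 to Day3 its bound was -1.56 after that shift, -2.30 without normalization and -2.17 with the positive-and-significant flag, so its course around Day2 depended on the processing. For this gene the arrays gave no measured level outside Day2, where 70.0% of the olfactory receptor probes were also above background.

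Promoter sequences of RefSeq on the build GRCm38.p6 matched 5 of the 7 genes (Pou3f2, Pou3f3, Pou3f4, Pou4f1 and Pou4f2). The 250 bases before the transcript start were searched on both strands for the octamer ATGCAAAT, the TATA box TATAAA, the CCAAT box CCAAT and the nuclear receptor motif AGGTCA. Over 32536 such windows the octamer was in 1.62%, the TATA box in 12.3%, the CCAAT box in 33.8% and the receptor motif in 14.0%. None of the 5 windows held the octamer, the TATA box or the receptor motif as spelled. The CCAAT box was found 2 times before Pou3f2, 3 times before Pou3f3, 3 times before Pou3f4 and in neither class IV window. The share of G and C was 66.8%, 60.8%, 58.0%, 78.0% and 70.8% in the order named above, against a median of 52.4% over all windows. Pou3f2 and Pou3f3 are shown because both rose at each step after Day3. Capitals mark the CCAAT box, and a match in letters is a description and not a site. The window of Pou3f2 is chr4:22488367-22488616 on the minus strand and that of Pou3f3 is chr1:42695518-42695767 on the plus strand.
Pou3f2: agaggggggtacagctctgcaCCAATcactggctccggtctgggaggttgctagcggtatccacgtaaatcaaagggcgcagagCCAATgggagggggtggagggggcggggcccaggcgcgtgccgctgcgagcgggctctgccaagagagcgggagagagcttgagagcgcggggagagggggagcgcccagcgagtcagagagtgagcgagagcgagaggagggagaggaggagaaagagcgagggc
Pou3f3: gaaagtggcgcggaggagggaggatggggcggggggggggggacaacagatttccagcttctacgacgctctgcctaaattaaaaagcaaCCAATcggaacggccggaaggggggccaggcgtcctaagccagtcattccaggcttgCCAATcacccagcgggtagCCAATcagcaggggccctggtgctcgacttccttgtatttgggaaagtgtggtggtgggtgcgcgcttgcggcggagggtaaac

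Among the class IV genes, Pou4f1 (Brn3a), a factor of sensory and some dorsal spinal neurons, was well above background on all 5 arrays. Its log2 signal was 8.98 in ES cells and then 9.58, 9.76, 9.08 and 8.86, from raw spot signals of 565, 1010, 691, 313 and 662. The whole range was 0.90 on the log2 scale, so no pair of arrays differed by 2-fold after quantile normalization. Its changes were 0.60, 0.18, -0.68 and -0.23 over the 4 steps, 0.78 from ES to Day3 and -0.13 from ES to Day7. Without normalization between arrays, where overall brightness enters every change, they included -1.14 from Day3 to Day4 and 1.08 from Day4 to Day7. Of the 7 genes, Pou4f1 was the one with a measured level on every array and no change past the threshold in the main setting.

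Pou4f2 (Brn3b), a factor of retinal ganglion cells, had log2 values of 8.12 in ES cells, 7.09 on Day2 and 6.45 on Day7, whereas Day3 and Day4 gave no measured level. Raw spot signals were 299, 257, 4.97, 2.43 and 109. The signal was thus present in ES cells and on Day2, lost on Day3 and Day4 and present again, at a lower level, on Day7. From ES to Day2 Pou4f2 fell 2.05-fold, at the edge of the threshold, while the 75th percentile shift gave -0.45 and no normalization gave -0.22. It fell at least 3.65-fold from Day2 to Day3 and, passing over Day2, at least 7.48-fold from ES to Day3. As log2 the bound from Day2 to Day3 was -1.87, with -1.13 under normexp, -2.82 after the 75th percentile shift, -3.56 without normalization and -4.29 with the positive-and-significant flag, and no value with the floor at the olfactory receptor probes. From Day4 to Day7 it rose at least 5.26-fold, a bound that was 1.07 on the log2 scale with normexp and 0.54 with the floor at the olfactory receptor probes, against 2.39. At Day7 it was 3.19-fold lower than in ES cells (-1.67 as log2, and -1.03 with normexp). This pattern of arrays above background was shared by 95 genes (0.477%).

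Pou4f3 (Brn3c), a factor of hair cells, was well above background in ES cells at 5.48 and on Day2 at 5.77, and on no later array. Raw spot signals were 45.4, 140, 7.51, 3.69 and 6.94. The ES spot carried a scanner error of 20.7% of its signal and the Day2 spot one of 10.3%. The change from ES to Day2 was 0.29, but it was 1.39 after the 75th percentile shift. The bounds were 1.47-fold lower from Day2 to Day3, 1.20-fold lower from ES to Day3 and 1.77-fold lower from ES to Day7, and 2.69-fold lower from ES to Day4, the array with the lowest floor of the 3 later time points. The signal of Pou4f3 was therefore dim throughout. The bound from Day2 to Day3 was -0.55 as log2 but -1.94 after the 75th percentile shift, -2.68 without normalization and -0.13 with normexp. With the positive-and-significant flag this change counted as measured, at -1.81. In the main setting only the one to Day4 among the bounds from ES cells passed the threshold. With normexp the ES and Day4 values of Pou4f3 were 6.83 and 6.32, less than 2-fold apart. Its ES value of 5.48 also lay under the 95th percentile of the olfactory receptor probes on that array (6.42). With the floor raised to that level, ES to Day4 had no value. The bound to Day7 was -0.82 as log2, but -1.15 after the 75th percentile shift, -1.14 with the deposited values, -2.53 with the positive-and-significant flag and -0.36 with normexp.

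Genes known beside the class IV factors were read from lists. Of 20 dorsal spinal and sensory genes, 16 had a value from ES to Day7, and 5 rose (Isl1, Lhx5, Neurog2, Neurod4 and Ntrk3) and 5 fell (Foxd3, Barhl1, Neurog1, Neurod1 and Ntrk2), with a median of -0.25. These counts lay near the 24.8% of all genes that rose and 24.4% that fell. Isl1, which motor neurons also express, rose by 6.06 and Ntrk3, the receptor of neurotrophin-3 that motor neurons express too, by 5.60. Prrxl1, a factor of sensory neurons and their dorsal horn targets, was well above background on no array, and Tlx3, a factor of dorsal sensory relay neurons, on Day2 only. Of 7 retinal and inner ear genes, 6 had a value from ES to Day7. Gfi1, Myo6 and Myo7a rose and Atoh1, Rbpms and Eomes fell, against the same shares over all genes. From Day4 to Day7, 5 of these 7 genes had a value, 0 rose and 2 fell (Rbpms and Eomes). Over all genes 18.1% rose and 18.1% fell at that step. Atoh7, the proneural factor of retinal ganglion cells, was well above background on Day2 only. Atoh1, the proneural factor of hair cells, had a log2 value of 6.09 in ES cells and a bound of -1.43 from ES to Day7. Rbpms and Eomes, also known in retinal ganglion cells, were well above background on every array although they fell. The source of the Pou4f2 signal on Day7 was not tested.

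Taken by comparison, 1 of the 7 genes rose from ES to Day2 (Pou3f2) and 1 fell (Pou4f2), where 10.7% of 18316 genes with a value rose and 11.3% fell. The median log2 change of the 7 was 0.29, against 0.00 over all genes. After the 75th percentile shift 4 of the 7 rose, and of all genes changed 74.9% then rose against 48.7% in the main setting. Without normalization this share was 85.4% and the all-gene median moved to 0.27. Passing over Day2, from ES to Day3, 4 of the 7 had a value, 0 rose and 2 fell (Pou3f1 and Pou4f2), where 15.6% of 15203 genes rose and 10.2% fell. The counts on Day2 therefore changed with the scaling, and a share of 1 in 7 did not stand out from the background.

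From Day2 to Day3, 0 of the 7 rose and 3 fell (Pou3f1, Pou3f2 and Pou4f2), while 13.0% of 18307 genes rose and 7.76% fell. The median was -0.55, against 0.00 over all genes. After the 75th percentile shift 5 of the 7 fell, and 25.5% of all genes changed then rose, against 62.6% in the main setting. Without normalization it was 3.48%, with an all-gene median of -0.81. The member median was negative under every alternative run, from -2.67 without normalization to -0.20 with normexp. All of these used the Day2 array with its raised signal in dim probes, and the falls of Pou3f2 and Pou4f2 were bounds. With genes well above background on both arrays, 1 member fell. Passing over Day2, the median from ES to Day3 was -1.6 over the 4 members with a value, against 0.06 over all genes.

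From Day3 to Day4, 4 of the 7 had a value. Pou3f2 and Pou3f3 rose and Pou3f1 fell, where 3.62% of 15626 genes rose and 4.87% fell. The median of the 4 was 0.56, against -0.01 over all genes, and it joined changes of opposite sign. It was -0.19 with no filter on dim probes and -1.40 over the 2 genes well above background on both arrays. Of all genes changed, 42.6% rose in the main setting, 53.0% with normexp and 20.1% without normalization, where the all-gene median was -0.48.

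From Day4 to Day7, 5 of the 7 had a value and 4 rose (Pou3f1, Pou3f2, Pou3f3 and Pou4f2), with 0 lowered, where 18.1% of 16082 genes rose and 18.1% fell. The median of the 5 was 2.10, against -0.12 over all genes. The 3 class III genes among the 5 were well above background on both arrays and rose 4.29-fold, 3.03-fold and 4.61-fold, while Pou4f2 had a bound. Without normalization 94.0% of all genes changed rose, against 49.9%, and the all-gene median was 1.06, while after the 75th percentile shift it was -0.25. Day7 lay on its own slide, and the part of the slide in these rises cannot be told apart from the time point.

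From ES to Day7, 6 of the 7 had a value. Pou3f2 and Pou3f3 rose and Pou3f1 and Pou4f2 fell, where 24.8% of 15838 genes rose and 24.4% fell. The median was -0.47, against -0.07 over all genes, and after the 75th percentile shift the latter was -0.35. Over the whole course the class III genes with a value thus moved in opposite directions. Pou3f1 was lower and Pou3f2 and Pou3f3 were higher at Day7 than in ES cells, and Pou3f4 had no value.

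**Figure D2:**
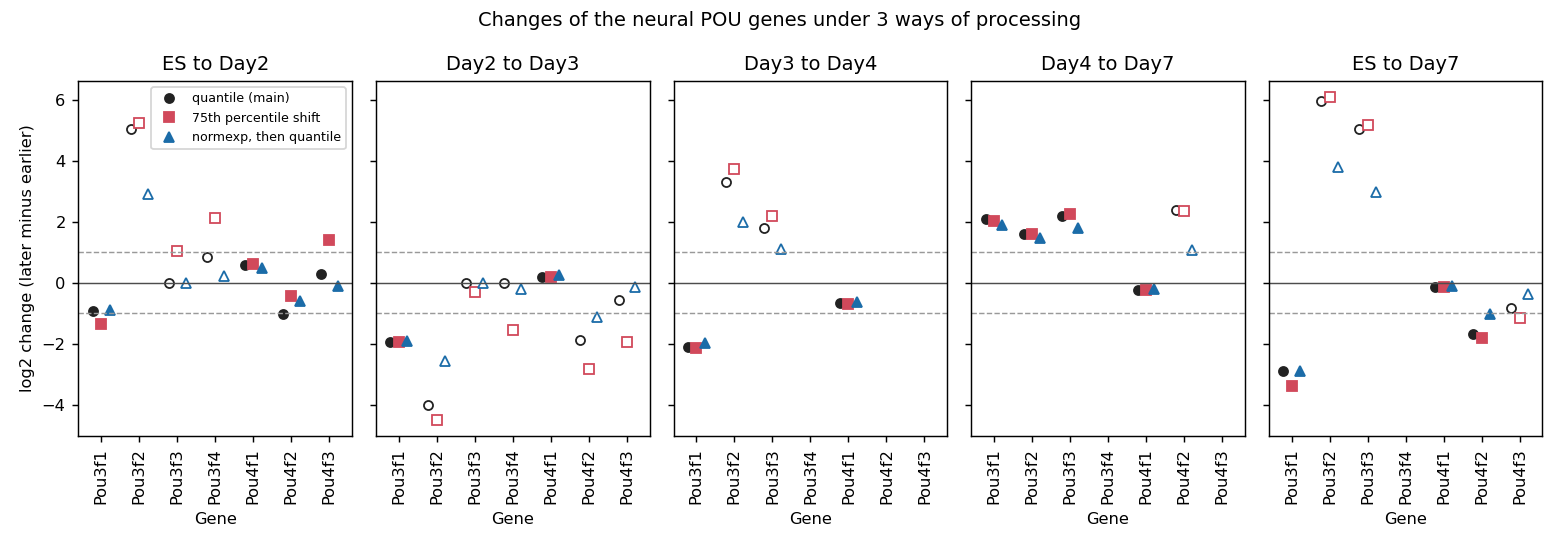
Log2 change of each of the 7 genes (later minus earlier array) in the 5 comparisons, after quantile normalization, after alignment of the arrays at their 75th percentiles and after normexp background correction with quantile normalization. Open symbols are bounds or genes without a fold (drawn at 0), dashed lines mark 2-fold and genes without a value are left blank; for Pou3f4 from ES to Day2 the values are 0.84, 2.14 and 0.21.

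Other POU genes were read beside these classes. Pou5f1 (Oct4), the class V factor of pluripotent cells, had log2 values of 12.39 in ES cells and then 11.68, 10.01, 8.90 and 8.22. Like Pou3f1 it fell from Day2 to Day3 (log2 change -1.66) and from Day3 to Day4 (-1.12), but its change from Day4 to Day7 was -0.67 whereas Pou3f1 rose by 2.10. Passing over Day2, Pou5f1 fell from ES to Day3. Pou2f2 (Oct2) rose by 1.28 from Day2 to Day3, did not pass the threshold from ES to Day3 and rose by 2.79 from Day4 to Day7. Pou2f1 (Oct1), the broadly expressed octamer factor, and Pou5f2 did not pass the threshold in any of the 5 comparisons. Pou2f3 was well above background in ES cells and on Day2 only. Pou1f1, the pituitary factor, was well above background on no array.

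Sox partners of class III factors were all measured on every array. From ES to Day7 4 of 6 rose (Sox1, Sox4, Sox11 and Sox12) and none fell, where 24.8% of all genes rose and 24.4% fell. From Day4 to Day7 Sox4 and Sox11 rose and Sox3 fell, where 18.1% rose and 18.1% fell. Sox11, a factor of young neurons, rose by 1.51 from Day3 to Day4 and by 2.69 from Day4 to Day7, the same steps at which Pou3f2 and Pou3f3 rose, whereas Sox3 rose by 1.03 and then fell by 2.10. Sox2, a partner in neural progenitors, did not pass the threshold in any of the 5 comparisons. Among genes known to be bound by class III factors or to act beside them, Nes, Fabp7 and Myt1l rose from ES to Day7. Fabp7, the radial glial lipid-binding protein, rose by 9.70 from Day4 to Day7. The probe that stood for Myt1l rose by at least 7.50, from a Day4 reading not well above background. Another of the 3 Myt1l probes was well above background on Day4, so the bound is that of the probe and not of the gene. The change of Dll1, a Notch ligand, from ES to Day7 was 0.49.

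Likeness is given for Pou3f1 and Pou4f1, the members well above background on all 5 arrays, since floors would stand in for levels in the other profiles. It was the root mean square (r.m.s.) difference between log2 profiles over the 5 arrays, each centred on its own mean, among 16150 genes well above background on at least 2 arrays. For Pou3f1 the closest genes were Il9, Pllp and Kirrel2, at 0.35, 0.45 and 0.48. Il9 lay at the floor on Day3 and Day4 and Pllp was well above background on 4 arrays, so their likeness rests partly on floors, and Kirrel2 was well above background on all 5. For Pou4f1 they were Gulp1, Lgi2 and Sc5d, at 0.05, 0.06 and 0.08, all well above background on 5 arrays, a likeness between profiles with little change.

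Neighbouring genes, among the nearest with a matched probe in the order of GRCm38.p6, were chosen after the values of the members were seen. Beside Pou3f1, Utp11 fell from ES to Day7 (-1.36), as Pou3f1 did, and passed the threshold in none of the 4 steps, while Rragc passed it in none of the 5 comparisons, nor did Fbxl4 and Mms22l beside Pou3f2. On one side of Pou3f3, 2900092D14Rik was well above background on Day7 only, where it rose at least 2.82 on the log2 scale from Day4, and on the other side Tmem182 was well above background on Day2 only. Beside Pou3f4, Gm6377 was well above background on no array and Cylc1 on Day2 only. Beside Pou4f1, Ednrb, the endothelin receptor B, had log2 values of 7.58 in ES cells and 9.36 on Day3 and rose by 2.75 from Day4 to Day7, where Pou4f1 changed by -0.23, and Obi1 rose by 1.55 from ES to Day7. Beside Pou4f2, which fell from ES to Day7, Rbmxl1 fell too (-1.23) and Ttc29 had a bound of -1.24. Beside Pou4f3, Rbm27 fell from ES to Day7 (-1.90).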

How the data were processed

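Total RNA of 5 samples, 1 per time point, was labelled with Cy3 and hybridised to 1 Agilent one-colour array each, and each sample was assigned to its time point from its labels. The authors deposited the scanner output of Agilent Feature Extraction 10.5.1 (version from the sample records), which per the file headers holds the intensity of each spot after background subtraction and detrending, not normalized between arrays, with the software's own error and flags. A log2 table, also deposited by the authors, equalled the log2 signal minus the array's 75th percentile within 0.01 for 100% of the matched probes on every array, with medians of -3.55, -2.62, -3.72, -3.54 and -3.67. Here control and outlier spots were left out, log2 signals were averaged per probe (55681 mouse probes) and brought to equal quantiles with limma 3.58.1 under R 4.3.3, because the legend in the study names Quantile analysis. Later steps used Python 3.11.15 with numpy 2.4.6, pandas 2.3.3 and matplotlib 3.10.9. Probes were named through transcript accessions of RefSeq on GRCm38.p6, used for names and gene order only, since the array design is on mm9: 26300 probes matched 19897 symbols. The probe brightest on average stood for a gene. A comparison gave no value for a gene dim on both of its arrays. It gave no fold where even the brighter array lay at or under the floor of the other, and medians then took 0.

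The named genes were the 7 members, the lists of other POU genes, partners and markers, and the 3 most alike genes of a member, given only for members well above background on every array. Some genes of these lists and some neighbouring genes are not reported here. Members and lists were chosen with earlier results of these data known. Alternatives were the 75th percentile shift, no normalization, normexp (offset 50, on median signals), thresholds of 1.5-fold and 4-fold, the mean over probes, the deposited values, the positive-and-significant flag in place of well above background, dim probes kept as measured, and genes required to be well above background on each array compared. Added after seeing the data were normalization without Day2 or without Day7, a floor at the 95th percentile of olfactory receptor probes, and the ES to Day3 comparison. The step that calls a change was run on a simulated pair of arrays made from the ES array. Known changes well past 2-fold were added to probes far above its floor, and floor cases used made-up values. Normalization, raised dim signal as on Day2 and changes near the threshold were not part of that check. Between spots of the 399 probes with 5 or more spots, the median SD of log2 signal was 0.06 to 0.11 per array. Other lists gave these counts from Day4 to Day7: of 4 astrocyte genes 3 had a value and 1 rose, of 4 neural crest genes 1 rose and 1 fell, of 5 mesoderm and endoderm genes 4 had a value, 1 rose and 3 fell, of 4 neural progenitor genes 1 fell, and of 6 housekeeping genes 0 changed, although Hprt and Tbp fell from ES to Day7. Of all genes, 18.1% rose and 18.1% fell from Day4 to Day7.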

Additional observations from a re-analysis of the deposited data

How the results depend on the processing

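With 1 array per time point, samples could not be paired and no replicate could be left out. Each member had 1 probe, so another probe could not be tried and the mean over probes gave the same values. Day7 alone lay on another slide, which cannot be told apart from its time. Signal over background limits the dim genes, whose changes are bounds set by the floor. Normalization without Day2 or Day7 and the floor at olfactory receptor probes were chosen after seeing the data. A value counts as moved where it differs from the main one by more than 1.5-fold, and as reversed where a change past 2-fold changes sign. By these rules 39 counts and medians moved, 134 stayed within 1.5-fold and 0 reversed, and for single genes 65 moved, 207 stayed within it and 0 reversed. Within that tolerance, members lowered from ES to Day7 were 3 in place of 2 after the 75th percentile shift, with the deposited values, with the positive-and-significant flag, with no filter and at 1.5-fold, members raised from Day4 to Day7 ranged from 3 to 5, members raised from Day3 to Day4 were 3 in place of 2 with that flag and with no filter, and members lowered from Day2 to Day3 were 2 in place of 3 with the floor at olfactory receptor probes. Values under 2-fold in the main setting did change sign, some to past 2-fold: the medians of ES to Day2 (both arrays) and Day3 to Day4 (both arrays, no filter) given next, Pou4f1 without normalization (-0.55 from Day2 to Day3, 1.08 from Day4 to Day7, 0.23 from ES to Day7) and Pou4f3 from ES to Day2 with normexp (-0.12). The cause was not tested, except that stricter filters and other thresholds change which genes can count.

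After the 75th percentile shift, ES to Day2 had a median of 1.04 with 4 raised, and Day2 to Day3 -1.93 with 5 lowered. The deposited values gave medians of 1.04 and -1.93, with 4 raised and 5 lowered. Without normalization, ES to Day2 had 1.26 with 4 raised, Day2 to Day3 -2.67 with 6 lowered, Day3 to Day4 2 lowered, and Day4 to Day7 a median of 3.34. With normexp, ES to Day2 had 0 lowered and Day4 to Day7 a median of 1.46. With the positive-and-significant flag, ES to Day2 had 2 raised and Day2 to Day3 -1.94 with 5 lowered. With no filter on dim probes, ES to Day2 had 2 raised, Day2 to Day3 -1.94 with 5 lowered, and Day3 to Day4 a median of -0.19. With genes well above background on both arrays, ES to Day2 had -0.32 with 0 raised, Day2 to Day3 1 lowered, Day3 to Day4 -1.40 with 0 raised, and ES to Day7 -1.67 with 0 raised. At 1.5-fold, ES to Day2 had 3 raised and 2 lowered, and Day3 to Day4 2 lowered. At 4-fold, ES to Day2 had 0 lowered, Day2 to Day3 1 lowered, Day3 to Day4 1 raised, and ES to Day7 1 lowered. With the floor at olfactory receptor probes, ES to Day2 had 0 lowered and Day2 to Day3 a median of -1.94. That floor left 3 to 5 members with a value, by comparison.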
